A study of Mus musculus with 9 samples.

Results

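The comparison set the regressing mammary gland against the gland before pregnancy. It used 5 of the 9 arrays of the series, 2 of glands at day 4 of involution, after weaning of the pups, and 3 of glands of virgin females at puberty, 6 weeks old. All glands were inguinal glands (no. 4) of wild type C57BL/6J mice, an inbred strain, with no treatment named, taken whole, with fat pad, stroma and vessels. The remaining arrays, 2 of day 14 of pregnancy and 2 of day 10 of lactation, entered the estimate of the spread. The members were the 12422 probe sets of the MG-U74Av2 array other than the 66 controls and 9783 of them had a mean signal above 20 in at least 1 stage and were tested. A probe set is a group of short oligonucleotides that reports 1 transcript, and its signal is a relative intensity. The methods name as many mice per stage as there are arrays, so each array stands for 1 animal.

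At puberty the gland is a tree of ducts that grows through a fat pad, with few alveoli. Pregnancy adds alveoli, whose luminal cells secrete milk, and myoepithelial cells around them that squeeze it out. After weaning, alveolar cells stop secretion and die, STAT3 signalling and an acute phase response set in, proteases break down the matrix, phagocytes clear dead cells and milk, and adipocytes refill.

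Of 4 control transcripts measured at both ends, 3 differed between the groups. For Gapdh, the signal of the 3' probe set divided by that of the 5' probe set was 0.868 to 0.990 on the 3 puberty arrays and 4.34 and 4.71 on the involution arrays. Beta-actin gave 1.03 to 1.28 at puberty and 3.02 and 4.14 at involution, and pyruvate carboxylase gave 2.68 to 6.36 and 44.5 and 64.8. Both involution arrays were thus above all other arrays of the series for these 3 transcripts. Transferrin receptor, with signals near or under the floor of 20 in these groups, gave 2.13 to 2.81 at puberty and 2.03 and 10.7 at involution, and up to 13.0 at lactation, so that its groups overlapped. The first 3 ratios moved with the stage, so the part of RNA integrity or labelling in the differences between the groups cannot be told apart from that of the stage.

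**Figure D1:**
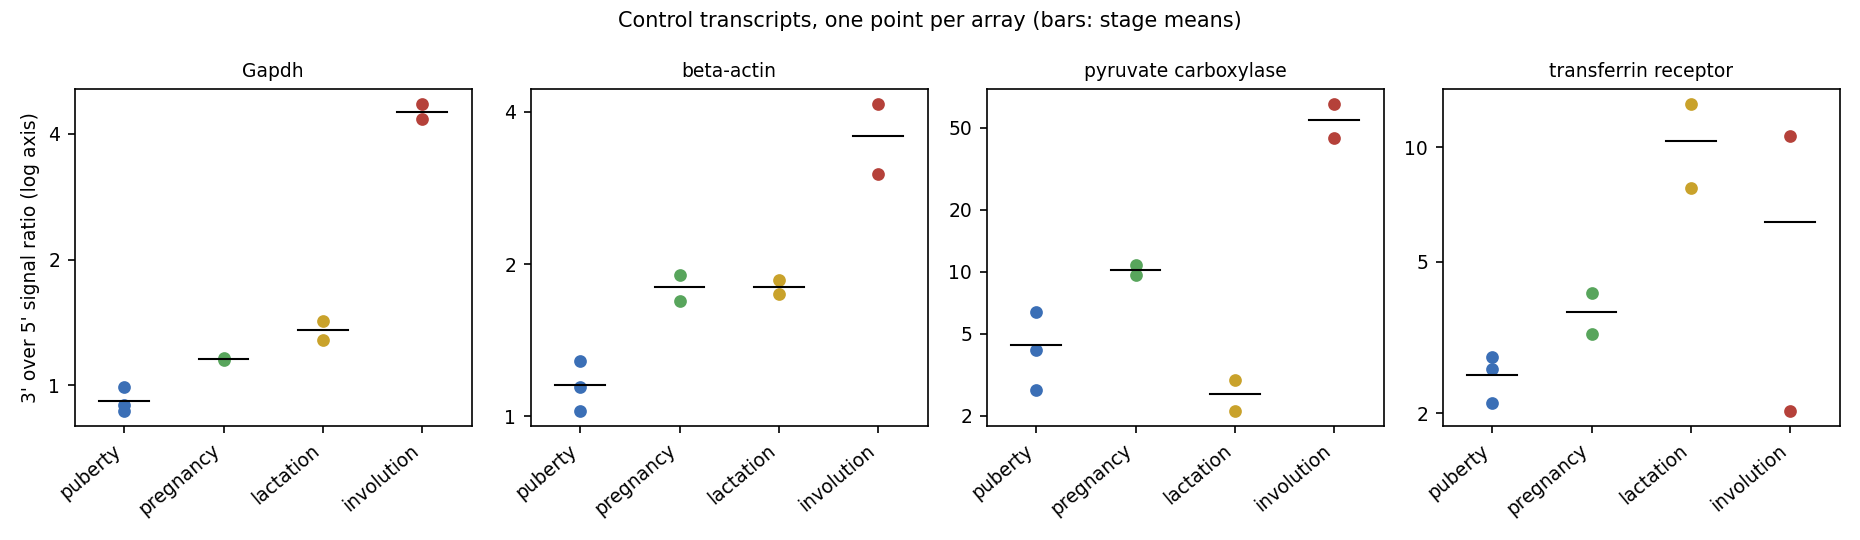
Signal of the 3' probe set over that of the 5' probe set (log axis) for 4 control transcripts, with a point for each of the 9 arrays and a bar at the stage mean. The involution arrays lie at 4.34 and 4.71 for Gapdh, above the 0.868 to 0.990 of the puberty arrays, while those of transferrin receptor lie at 2.03 and 10.7, on both sides of puberty.

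Of the 9783 probe sets tested, 732 (7.48%) differed between involution and puberty (limma, adjusted p under 0.05), of which 429 (4.39%) were higher and 303 (3.1%) lower at involution. At least 2-fold, 261 (2.67%) were higher and 218 (2.23%) lower. The balance of directions depended on how the arrays were scaled. With equal medians 58.6% of the calls were higher, against 46.5% on the deposited scale, 51.6% with equal 75th percentiles and 49.2% after quantile normalization. With 1 probe set per gene, the brightest, 528 of 7090 genes (7.45%) were called, 329 (4.64%) higher and 199 (2.81%) lower, with a median log2 difference of 0.06 over all 7090. The number of calls depended on single arrays, as 245 probe sets passed without involution array 2, 371 without puberty array 1, 461 without puberty array 3 and 479 without puberty array 2. A total of 178 probe sets, 111 higher and 67 lower, were called with each of the 9 arrays left out in turn. Of the tested probe sets, 42.4% had all puberty and all involution signals apart, 26.1% with involution above and 16.3% below. The share called grew with signal, from 3.76% of the 2446 dimmest probe sets to 13.3% of the 2446 brightest.

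The distance between the stages was taken as the root mean square of the log2 differences of stage means over the tested probe sets. It was 0.643 between involution and puberty, and a log2 difference of 1 is 2-fold. Pregnancy lay at the same 0.643 from puberty, involution at 0.608 from pregnancy, and lactation at 1.19 from puberty and 1.13 from involution. The 6 pairs of a puberty and an involution array were 0.628 to 0.792 apart, while the puberty arrays were 0.381 to 0.430 from each other and the 2 involution arrays 0.502. By this measure the involuting gland was nearer to the pubertal than to the lactating gland. Of the probe sets higher at involution than at puberty, 59.9% had their highest stage mean at involution and 29.6% at lactation. Of those lower, 69.3% had their highest mean at puberty. These shares and distances are descriptions with no test.

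**Figure D2:**
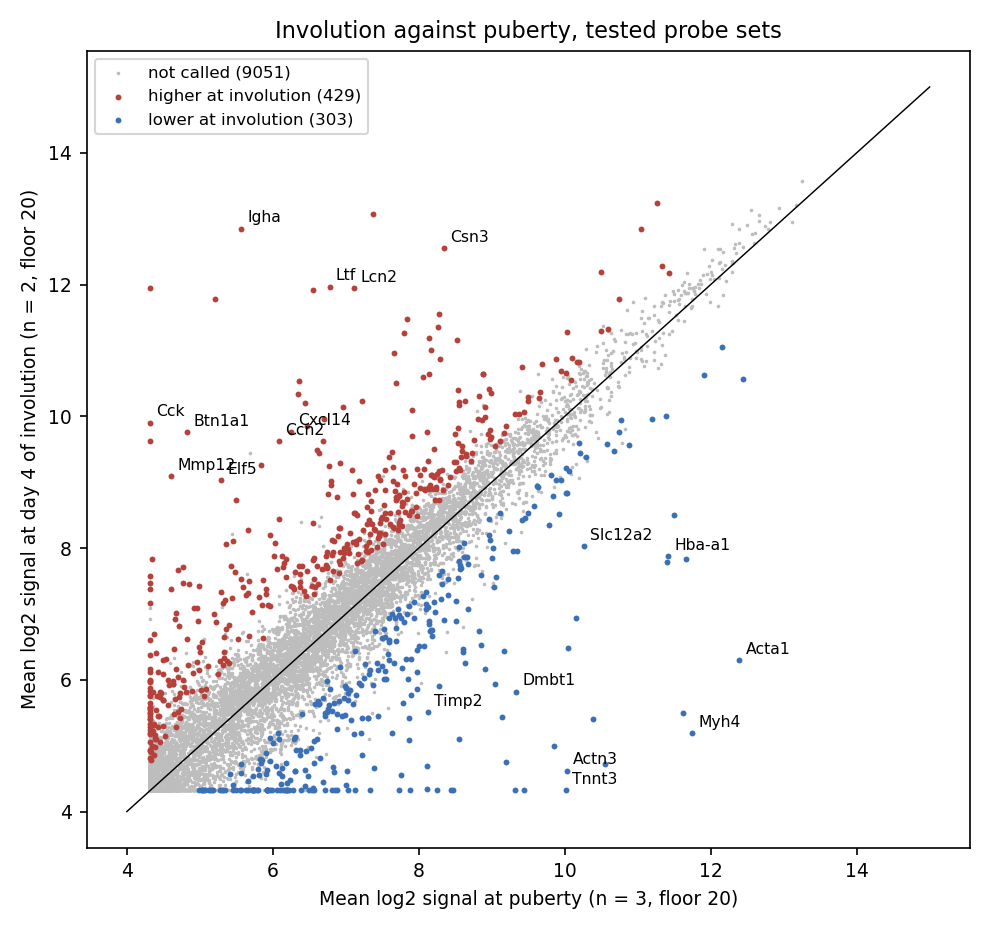
Mean log2 signal of each of the 9783 tested probe sets at puberty (x axis, 3 arrays) and at involution (y axis, 2 arrays), values under 20 set to 20. Points above the diagonal are higher at involution, and the 429 higher and 303 lower calls are coloured.

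Among genes by their brightest probe set, with both groups above the floor, the largest rise was that of Igha, the constant region of the immunoglobulin A heavy chain. Its signals were 33.9, 82.8 and 37.7 at puberty and 5856 and 9319 at involution, with no overlap, a log2 difference of 7.29 ± 0.40 (SE, adjusted p = 6.00e-05). A dimmer Igha probe set was also called higher (3.25 ± 0.20, adjusted p = 8.69e-05). Another overlapped, 20.6, 7.02 and 12.6 at puberty and 47.4 and 3.75 at involution (0.61 ± 0.34, adjusted p = 0.340), and was not called. The caseins Csn1s1, Csn2, Csn3 and Csn1s2a, the antimicrobial milk proteins Ltf (lactoferrin) and Lcn2 (lipocalin 2), the milk fat globule protein Btn1a1, the macrophage elastase Mmp12, the joining chain of polymeric antibodies Jchain, the alveolar transcription factor Elf5 and the secreted Wfdc18 made up the rest of the 12 largest. Elf5 gave 40.7, 42.5 and 34.6 at puberty and 434 and 632 at involution (3.74 ± 0.21, adjusted p = 6.30e-05), and Jchain gave 68.6, 63.5 and 123 at puberty and 1364 and 1218 at involution (3.99 ± 0.34, adjusted p = 4.46e-04). Wfdc18 was 246, 227 and 214 at puberty and 1815 and 4460.1 at involution (3.64 ± 0.33, adjusted p = 5.52e-04). In all 3, each involution array was above each puberty array. A probe set annotated to Ighm, the immunoglobulin M heavy chain, and named after its values were seen, was at most 17.4 at puberty and 3814 and 4074 at involution, at least 197-fold higher (adjusted p = 1.58e-08). It was 1 of 9 tested for that gene, and the brightest of them differed by 0.85 (adjusted p = 0.126), so which gene it reports is uncertain.

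The 12 largest falls held 7 genes of skeletal muscle fibres, among them the fast myosin Myh4, the actin Acta1 and the calcium pump Atp2a1, and also Cox6a2 and Eef1a2, which are muscle and heart forms of a respiratory subunit and of a translation factor. The others were the globins Hba-a1 and Hbb-b2 and the mucosal scavenger protein Dmbt1. Dmbt1 varied between puberty arrays, with 823, 1194 and 272 at puberty and 46.3 and 69.2 at involution (-3.51 ± 0.53, adjusted p = 0.00628), yet no involution signal reached the lowest pubertal one. Genes at the floor of 20 on all arrays of a stage have only a bound. The hormone precursor Cck was at most 17.6 at puberty and 972 and 944 at involution, at least 47.9-fold higher (adjusted p = 5.63e-05). Chil1, a chitinase-like secreted protein, was at most 9.75 and then 542 and 1159, at least 39.6-fold higher (adjusted p = 5.52e-04). Adamdec1, a metalloprotease, was at most 3.22 and then 150.3 and 137, at least 7.17-fold higher (adjusted p = 0.00292). The calls of Igha, Elf5, Jchain, Wfdc18, Cck, Chil1 and Adamdec1 held with each of the 9 arrays left out in turn. Dmbt1 (either lactation or either involution, adjusted p up to 0.0639) lost its call without the arrays in brackets.

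**Figure D3:**
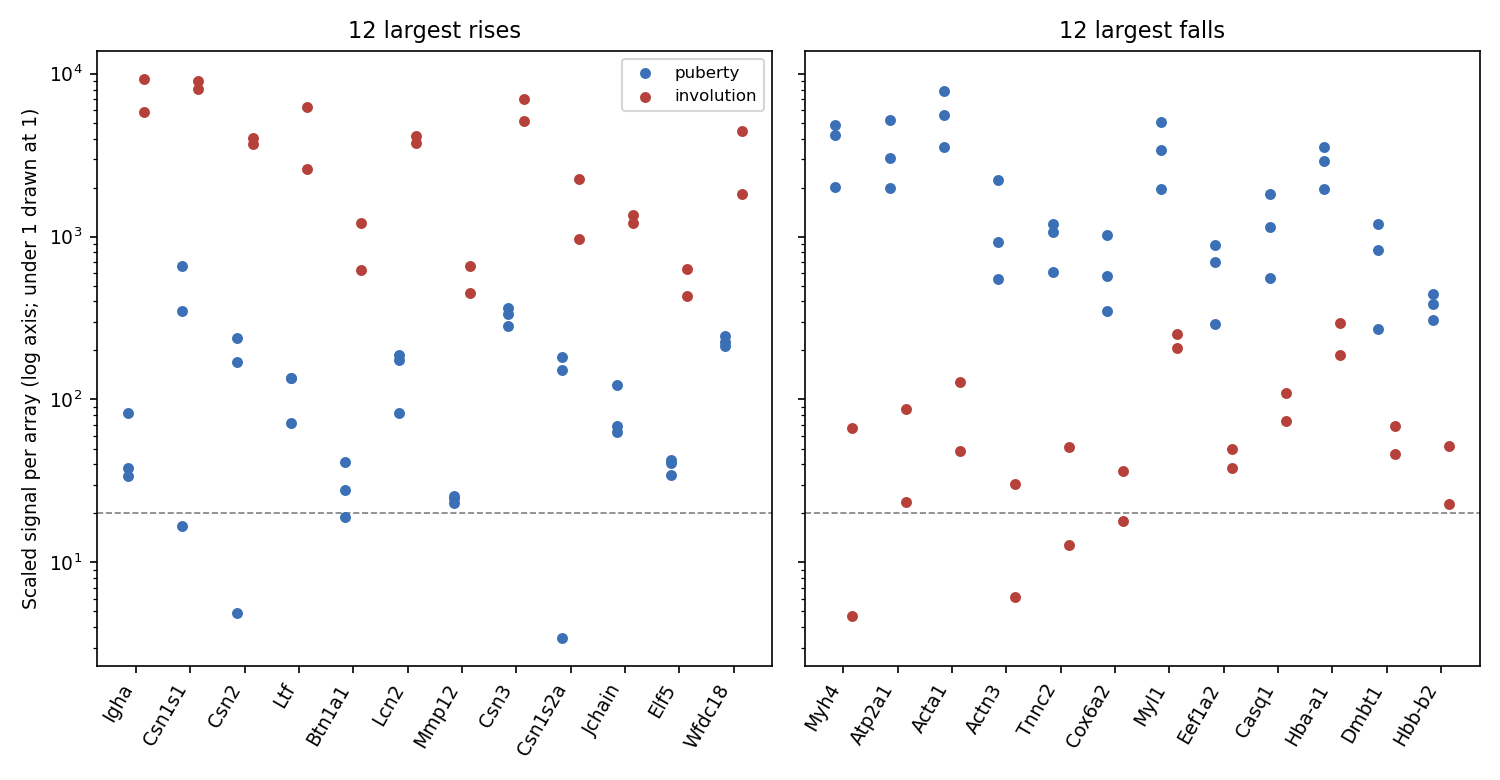
Scaled signal on each puberty and involution array (log axis, values under 1 drawn at 1) of the genes with the 12 largest rises and the 12 largest falls, each by its brightest probe set. In each of the 24 genes the involution arrays lie all above or all below the puberty arrays, and a dashed line marks 20, the floor.

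Milk protein transcripts were far above their pubertal level at day 4 of involution. Of 10 tested, 7 rose and 0 fell, with a median log2 difference of 3.56. The other 3 were not called, and their values were looked up for that reason. Whey acidic protein, Wap, gave 4.09, 696 and 436 at puberty and 576 and 519 at involution (1.58 ± 1.24, adjusted p = 0.514), and puberty array 1 was far below the other two. Glycam1, a mucin of milk, gave 2348, 2679 and 2442 at puberty and 2114 and 1364 at involution (-0.55 ± 0.23, adjusted p = 0.198). Csn1s2b gave 4.86, 62.4 and 48.9 at puberty and 53.5 and 357 at involution (1.81 ± 0.74, adjusted p = 0.189), overlapping puberty. More cells of a type and more RNA per cell cannot be told apart in whole gland, for these and all other genes. Kappa-casein Csn3 gave 362, 336 and 283 at puberty and 5103 and 7029 at involution (4.20 ± 0.20, adjusted p = 3.31e-05). Lactoferrin Ltf gave 72.2, 135 and 136 at puberty and 2589 and 6221 at involution (5.19 ± 0.45, adjusted p = 4.71e-04). The 3 pubertal values of Csn3 lay close together, whereas the calcium-sensitive caseins differed widely among puberty arrays. Csn1s1 was 16.8, 657 and 352 at puberty and 8099.7 and 9087 at involution (5.69 ± 1.19, adjusted p = 0.0244), and Csn2 was 4.86, 238 and 171 at puberty and 3693 and 4016 at involution (5.37 ± 0.87, adjusted p = 0.00799). Puberty array 1 was lowest in both. Alpha-lactalbumin Lalba, a subunit of lactose synthase, gave 48.9, 19.98 and 21.0 at puberty and 145 and 307 at involution (2.94 ± 0.44, adjusted p = 0.00542). The calls of Csn3 and Ltf held with each of the 9 arrays left out in turn. Csn1s1 (either pregnancy, either lactation or either involution, adjusted p up to 0.177), Csn2 (either lactation or either involution, adjusted p up to 0.101) and Lalba (either lactation or involution array 2, adjusted p up to 0.0804) lost their calls without the arrays in brackets. The count of 7 fell to 3 without either lactation array or without involution array 2.

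The promoters of 2 caseins are shown because they hold a match to TTCNNNGAA, the letters bound by STAT factors, which carry the prolactin signal to milk genes. Both stretches end at the base before the RefSeq start (GRCm38.p6), Csn1s1 at chr5:87666088-87666207, plus strand, Csn2 at chr5:87699426-87699545, minus strand, and capitals mark the match.
Csn1s1: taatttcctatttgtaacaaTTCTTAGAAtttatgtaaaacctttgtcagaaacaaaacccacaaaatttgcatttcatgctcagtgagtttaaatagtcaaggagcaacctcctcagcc
Csn2: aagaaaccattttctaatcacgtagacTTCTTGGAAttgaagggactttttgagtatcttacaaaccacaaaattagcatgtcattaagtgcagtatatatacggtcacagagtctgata
The match begins 100 bases before the start in Csn1s1 and 93 bases before it in Csn2. The promoter table held 5662 of the 7090 genes. In windows of 250 bases before to 50 after the start, either strand, 4 of the 8 milk protein promoters held these letters, as did 6.84% of 7297 promoters of genes tested, 8.41% of those higher and 5.75% of those lower at involution. A match is a description of the letters and not a site of binding.

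Membrane proteins of the milk fat globule rose too, 6 of 8 tested, with 0 lower and a median of 1.40. Btn1a1, needed for fat secretion, gave 27.9, 41.2 and 19.0 at puberty and 628 and 1206 at involution (4.94 ± 0.38, adjusted p = 2.34e-04). Mfge8, which also bridges dying cells to phagocytes, gave 2060.0, 2095 and 2161 at puberty and 5608 and 9542 at involution (1.80 ± 0.24, adjusted p = 0.00330). The mucin Muc1 gave 108, 103 and 88.6 at puberty and 546 and 882 at involution (2.80 ± 0.20, adjusted p = 1.62e-04). In each of the 3 the groups were apart, and the count was 3 without involution array 2. Carrier proteins split. Of 19 mammary transporters 5 rose, 3 without involution array 2, and 1 fell (2 with each of the other scalings). The amino acid carrier chain Slc3a2 gave 517, 511 and 476 at puberty and 1263 and 1479 at involution (1.45 ± 0.14, adjusted p = 7.24e-04). The zinc carrier Slc39a8 gave 13.3, 27.5 and 29.9 at puberty and 104 and 162 at involution (2.35 ± 0.24, adjusted p = 9.27e-04). Slc12a2, the sodium, potassium and chloride cotransporter of duct cells, went the other way, 1118, 1434 and 1154 at puberty and 264 and 257 at involution (-2.24 ± 0.15, adjusted p = 1.12e-04), with no overlap. The calls of Btn1a1, Mfge8, Muc1, Slc3a2, Slc39a8 and Slc12a2 held with each of the 9 arrays left out in turn.

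Lipid synthesis did not move in 1 direction. In the list of fatty acid and triglyceride synthesis 2 of 18 genes rose and 3 fell, and the median of 0.05 became -0.05 on the deposited scale and -0.15 after quantile normalization. The rises were desaturases. Fads1 gave 192, 178 and 264 at puberty and 437 and 577 at involution (1.27 ± 0.20, adjusted p = 0.00790). Scd2 gave 665, 686 and 693 at puberty and 2184 and 1350.4 at involution (1.33 ± 0.27, adjusted p = 0.0224). Dgat1, which makes the last step to triglyceride, gave 529, 742 and 712 at puberty and 235 and 262 at involution (-1.40 ± 0.17, adjusted p = 0.00260), while a dimmer probe set of it differed by 0.11 and was not called. On the brighter one both involution signals were below puberty, as were those of Gpam, which makes the first step, with 941, 1189.8 and 1077 at puberty and 576 and 579 at involution (-0.88 ± 0.15, adjusted p = 0.0110). The fatty acid carrier Fabp3 was 70.5, 40.3 and 79.5 at puberty and 5.32 and 7.28 at involution, wholly under the floor at involution, at least 3.04-fold lower (adjusted p = 0.00974). The call of Dgat1 held with each of the 9 arrays left out in turn. Fads1 (involution array 2, adjusted p up to 0.0937), Scd2 (any puberty, either lactation or either involution, adjusted p up to 0.132), Gpam (either involution, adjusted p up to 0.0817) and Fabp3 (either lactation or either involution, adjusted p up to 0.0952) lost their calls without the arrays in brackets. Of 13 cholesterol synthesis genes 0 were called by limma and 0 by ordinary least squares. At an unadjusted p under 0.05 was 1, against 2174 of all 9783 probe sets tested. The lowest adjusted p was that of the desaturase Sc5d, 37.5, 37.0 and 44.9 at puberty and 69.2 and 61.6 at involution (0.72 ± 0.29, adjusted p = 0.184).

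White adipocyte markers were present in both groups. Adiponectin, Adipoq, gave 4146, 4759 and 5204 at puberty and 4396 and 5707 at involution (0.10 ± 0.19, adjusted p = 0.839). Of 16 markers 1 rose and 0 fell (1 to 3 with the other scalings), with a median of -0.21. That 1 was leptin, Lep, the satiety hormone of fat cells, with 463, 380.5 and 354 at puberty and 1132 and 1290.2 at involution (1.61 ± 0.21, adjusted p = 0.00292). The lipid droplet protein Cidec gave 894, 1319.8 and 1358 at puberty and 473 and 605 at involution (-1.13 ± 0.30, adjusted p = 0.0554). The lipase Lipe gave 1479, 1761 and 2326 at puberty and 643 and 1241 at involution (-1.03 ± 0.32, adjusted p = 0.0965), and in both genes all involution signals were below the pubertal ones without a call. Lep (involution array 2, adjusted p up to 0.0514) lost its call without the arrays in brackets. Of 6 brown fat markers 3 fell, the respiratory subunits Cox8b and Cox7a1 and Fabp3, all of which muscle expresses as well. Ucp1, the uncoupling protein that defines brown fat, was 643, 106 and 33.1 at puberty and 17.1 and 19.0 at involution (-2.71 ± 1.02, adjusted p = 0.157), so that 1 puberty array held most of its signal. The brown fat count was 2 without either pregnancy array, 1 without lactation array 1 or either involution array and 0 without lactation array 2.

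Acute phase and STAT3 pathway genes rose in 11 of 23 tested, with 0 lower and a median of 0.66. Lcn2 gave 187, 174 and 82.4 at puberty and 3744 and 4141 at involution (4.82 ± 0.35, adjusted p = 2.00e-04). The copper protein ceruloplasmin, Cp, gave 299, 303 and 343 at puberty and 1658 and 2093 at involution (2.57 ± 0.16, adjusted p = 8.91e-05). Osmr, the receptor chain for oncostatin M that signals through STAT3, gave 119, 114 and 119.8 at puberty and 410.1 and 465 at involution (1.89 ± 0.18, adjusted p = 5.72e-04). In these 3 the groups were apart. The protease inhibitor Slpi was 126, 142 and 172 at puberty and 459 and 580.4 at involution (1.82 ± 0.22, adjusted p = 0.00226). The lipopolysaccharide coreceptor Cd14 gave 387, 325 and 400.4 at puberty and 1543 and 3360.3 at involution (2.62 ± 0.33, adjusted p = 0.00276). Saa3, an acute phase apolipoprotein, was at the floor at puberty and 129 and 216 at involution, at least 8.34-fold higher (adjusted p = 0.0159). Cebpd, Saa2, Lbp, Lifr and Pik3r1 made up the remainder, while Stat3 itself, named after its values were seen, differed between its probe sets. The brightest gave 432, 437 and 395 at puberty and 439.5 and 415 at involution (0.02 ± 0.13, adjusted p = 1). The other gave 264, 273 and 241 at puberty and 429 and 541 at involution (0.90 ± 0.14, adjusted p = 0.00637), higher on both involution arrays and called. The calls of Lcn2, Cp, Osmr, Slpi and Cd14 held with each of the 9 arrays left out in turn. Saa3 (puberty array 1, either pregnancy or either involution, adjusted p up to 0.153) lost its call without the arrays in brackets. The count was 5 without involution array 2 and 7 without involution array 1, puberty array 1 or 3 or either pregnancy array.

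Of 20 lysosomal genes 6 rose and 0 fell, and 16 had the involution arrays all above the puberty arrays (26.1% over all probe sets). Cathepsin S, Ctss, an endosomal protease of antigen presenting cells, gave 1012, 1121 and 1021 at puberty and 2499.7 and 2499.7 at involution (1.25 ± 0.12, adjusted p = 5.96e-04). Cathepsin B, Ctsb, which has been tied to lysosomal death of alveolar cells, gave 2619.6, 2832 and 2793 at puberty and 4077 and 5298 at involution (0.76 ± 0.16, adjusted p = 0.0234). The groups were apart in both, as in the acid lipase Lipa, with 72.4, 60.6 and 87.7 at puberty and 148 and 353 at involution (1.65 ± 0.33, adjusted p = 0.0192). The call of Ctss held with each of the 9 arrays left out in turn. Ctsb (any puberty or involution array 2, adjusted p up to 0.121) and Lipa (puberty array 1 or 2, either pregnancy, either lactation or involution array 2, adjusted p up to 0.0888) lost their calls without the arrays in brackets. The count was 2 without puberty array 1 or 2 or involution array 2, and 10 with a filter of 100 in place of 20.

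Matrix proteases rose and an inhibitor of them fell. Of 13 genes 5 were higher, all metalloproteinases (Mmp3, Mmp9, Mmp11, Mmp12 and Mmp13), and 1 was lower. Mmp12, macrophage elastase, gave 24.8, 23.0 and 25.5 at puberty and 449 and 664 at involution (4.48 ± 0.35, adjusted p = 2.70e-04). Stromelysin 1, Mmp3, gave 197, 311 and 224 at puberty and 722 and 959 at involution (1.80 ± 0.25, adjusted p = 0.00424). Timp2, a tissue inhibitor of metalloproteinases, gave 306, 300.0 and 239.6 at puberty and 51.0 and 40.7 at involution (-2.62 ± 0.26, adjusted p = 7.24e-04), with the groups far apart on its brightest probe set. Mmp9, gelatinase B, was near the floor in the virgin gland, 32.4, 26.8 and 36.7 at puberty and 67.4 and 74.3 at involution (1.16 ± 0.22, adjusted p = 0.0171). The calls of Mmp12 and Timp2 held with each of the 9 arrays left out in turn. Mmp3 (involution array 2, adjusted p up to 0.0701) and Mmp9 (puberty array 1 or 2, either lactation or either involution, adjusted p up to 0.109) lost their calls without the arrays in brackets. The count of 5 was 2 without puberty array 1 or 2, 3 without either pregnancy, either lactation or involution array 1, and 1 without involution array 2.

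Stretches before the starts of Mmp12 and Mmp3 are shown for their match to TGANTCA, the letters of AP-1 factors, which drive many of these proteases. Mmp12 was read from chr9:7347274-7347373, plus strand, Mmp3 from chr9:7445722-7445821, plus strand (RefSeq, GRCm38.p6), and capitals mark the match.
Mmp12: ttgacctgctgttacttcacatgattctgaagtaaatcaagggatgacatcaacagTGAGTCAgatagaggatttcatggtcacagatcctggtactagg
Mmp3: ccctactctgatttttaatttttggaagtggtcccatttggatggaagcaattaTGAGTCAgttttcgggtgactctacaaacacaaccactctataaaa
It begins 44 bases before the start in Mmp12 and 46 bases before it in Mmp3. Of 10 promoters of the protease list 4 held it, against 6.02% of all those of genes tested and 8.41% of those higher at involution.

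Stromal genes leaned lower. Of 35 collagen and stroma genes 8 fell and 1 rose, with a median of -0.37. The fibrillar Col3a1 gave 2938, 2561 and 1708 at puberty and 942 and 1049.9 at involution (-1.24 ± 0.22, adjusted p = 0.0111). The microfibrillar Col6a3 gave 1768, 1762 and 1390.1 at puberty and 766 and 661 at involution (-1.20 ± 0.17, adjusted p = 0.00449). Col1a2 gave 3343, 2848 and 2042 at puberty and 1048 and 1009.7 at involution (-1.39 ± 0.22, adjusted p = 0.00709) on its brightest probe set, while its other probe set differed by 0.14 and was not called. In all 3 both involution arrays were below puberty. Mgp, matrix Gla protein, an inhibitor of calcification, rose, 136, 147 and 126 at puberty and 547 and 624 at involution (2.10 ± 0.16, adjusted p = 2.34e-04). The call of Mgp held with each of the 9 arrays left out in turn. Col3a1 (either lactation or either involution, adjusted p up to 0.0835), Col6a3 (involution array 2, adjusted p up to 0.0616) and Col1a2 (either involution, adjusted p up to 0.0817) lost their calls without the arrays in brackets. Without involution array 2 the 8 falls became 0. They were 3 without involution array 1 or either lactation array and 4 without any 1 puberty array.

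Macrophage markers rose in 10 of 20, with 0 lower (1 without involution array 2) and a median of 0.68. Mpeg1, a pore-forming protein of macrophages, gave 507, 471 and 444 at puberty and 1532 and 1659 at involution (1.75 ± 0.12, adjusted p = 1.50e-04). Cd68, an endosomal protein of phagocytes, gave 236, 223 and 207 at puberty and 420.3 and 503 at involution (1.05 ± 0.14, adjusted p = 0.00375). Galectin 3, Lgals3, gave 170.2, 202 and 125 at puberty and 412 and 426 at involution (1.37 ± 0.22, adjusted p = 0.00799). No pubertal signal of these 3 reached an involution signal. Of the 20, 14 had both involution arrays above all puberty arrays (26.1% over all probe sets) and 2 had both below (16.3%). The lowest difference in the list was -0.87, not called, and the same value was the lowest of the complement list. Defining markers were present. The growth factor receptor Csf1r gave 444, 531 and 467 at puberty and 934 and 1107 at involution (1.09 ± 0.20, adjusted p = 0.0138). Adgre1, which encodes F4/80, gave 67.6, 51.9 and 56.3 at puberty and 191 and 176 at involution (1.65 ± 0.28, adjusted p = 0.00954). Summed over the list, signals were 6512 to 7613 at puberty and 12256 to 15286 at involution. The calls of Mpeg1 and Cd68 held with each of the 9 arrays left out in turn. Lgals3 (involution array 2, adjusted p up to 0.0808) lost its call without the arrays in brackets. The count was 5 without involution array 2.

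Molecules of phagocyte traffic and antigen display moved less uniformly. Of 18 chemokines 4 rose (2 without involution array 2) and 0 fell, with a median of 0.62. Cxcl14 gave 90.6, 72.0 and 68.4 at puberty and 810.2 and 937 at involution (3.51 ± 0.17, adjusted p = 3.31e-05), with both involution arrays far above puberty. The monocyte attractant Ccl8 gave 456, 531 and 390.3 at puberty and 1003 and 1595 at involution (1.47 ± 0.20, adjusted p = 0.00413). The membrane-bound Cx3cl1 gave 135, 157 and 129.5 at puberty and 339 and 407 at involution (1.41 ± 0.20, adjusted p = 0.00425). Of 11 genes of MHC class II presentation 3 rose, Ctss, H2-Aa and H2-Eb1 (1 without involution array 2), and 1 fell, Ciita, the transactivator of that pathway (2 with the other scalings). H2-Eb1 gave 1456, 1932 and 1768 at puberty and 3349 and 3733 at involution (1.05 ± 0.17, adjusted p = 0.00798). Ciita gave 121, 118 and 94.4 at puberty and 60.1 and 56.4 at involution (-0.92 ± 0.22, adjusted p = 0.0361). In the complement list 8 of 13 genes had both involution arrays above all puberty arrays (26.1% over all probe sets). Both were below in 2 (16.3%), with a lowest difference of -0.87. Of 13 complement genes 3 rose, C1qb, C3ar1 and Clu, and 0 fell (1 without either involution array). That count was 0 without involution array 2, 1 without puberty array 1 or 3 or either lactation array, and 5 without involution array 1. In the interferon list of 21, Gbp2 and Irf8 rose, 0 without puberty array 1 or involution array 2 and 1 without puberty array 2 or 3 or either lactation array. The lymphoid factor Irf4 fell, 276, 201 and 289.8 at puberty and 81.6 and 93.1 at involution (-1.53 ± 0.23, adjusted p = 0.00539). The calls of Cxcl14, Ccl8 and Irf4 held with each of the 9 arrays left out in turn. Cx3cl1 (involution array 2, adjusted p up to 0.0583), H2-Eb1 (involution array 2, adjusted p up to 0.0835) and Ciita (any puberty, pregnancy array 1, either lactation or either involution, adjusted p up to 0.155) lost their calls without the arrays in brackets.

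T and NK cell markers were not higher as a list, with 1 of 19 higher, 0 lower (2 without involution array 1) and a median of -0.48. Of the 19, 11 had both involution arrays below all puberty arrays (16.3% over all probe sets) and 2 had both above (26.1%). The cytotoxic granule protease Gzma, 20.5, 25.1 and 20.5 at puberty and 57.8 and 54.9 at involution (1.36 ± 0.18, adjusted p = 0.00372), rose. Cd4 was 197, 171 and 156 at puberty and 97.7 and 114 at involution (-0.72 ± 0.24, adjusted p = 0.115), and Cd3g was 100.3, 87.9 and 117 at puberty and 70.7 and 35.9 at involution (-1.01 ± 0.30, adjusted p = 0.0854). Both were below puberty on both involution arrays but not called. Of 18 B and plasma cell markers 3 rose, Igha, Jchain and the plasma cell regulator Prdm1, which was near the floor at 8.28, 12.1 and 20.1 at puberty and 28.1 and 27.1 at involution (0.46 ± 0.11, adjusted p = 0.0397). Prdm1 lost that call on the deposited scale, with equal 75th percentiles, with no floor and with a floor of 50. In the list 0 fell and the median was -0.01. Of the 18, 5 genes lay wholly above puberty (26.1% over all probe sets) and 4 wholly below (16.3%). The plasma cell marker Sdc1 gave 46.0, 43.1 and 48.7 at puberty and 31.2 and 27.4 at involution (-0.65 ± 0.23, adjusted p = 0.131), not called. B cells themselves were present, with the B cell receptor component Cd79b at 623, 629 and 581 at puberty and 686 and 576 at involution (0.04 ± 0.43, adjusted p = 1). Immunoglobulin probe sets, chosen after their values were seen, gave 18 higher and 1 lower of 57 tested, a median log2 difference of 0.94, with 11 of 27 kappa chain probe sets higher. Such probe sets share sequence with one another, so a single gene cannot be named from them with certainty. Of 12 neutrophil and mast cell markers 2 rose, both mast cell proteases. Cma1 gave 253, 302 and 279.7 at puberty and 845 and 900.2 at involution (1.65 ± 0.27, adjusted p = 0.00807). Tpsb2 gave 231, 195 and 255 at puberty and 399 and 745 at involution (1.27 ± 0.26, adjusted p = 0.0225), with a dimmer probe set at -0.35 and not called. Of the 12, 5 had both involution arrays above all puberty arrays (26.1% over all probe sets) and 2 had both below (16.3%). The lowest difference in that list was -1.15, not called. Of the neutrophil genes, Ly6g, Mpo and Cxcr2 were at the floor in both groups. Neutrophil elastase, Elane, was below puberty on both involution arrays but not called, 103, 124 and 112 at puberty and 67.6 and 64.1 at involution (-0.78 ± 0.24, adjusted p = 0.0893). The granulocyte growth factor receptor Csf3r, named after its values were seen, overlapped, 369, 109.6 and 159 at puberty and 194 and 264 at involution (0.28 ± 0.50, adjusted p = 0.814). The call of Gzma held with each of the 9 arrays left out in turn. Prdm1 (any puberty or involution array 2, adjusted p up to 0.123), Cma1 (either involution, adjusted p up to 0.0954) and Tpsb2 (puberty array 1 or 2, either pregnancy, either lactation or involution array 2, adjusted p up to 0.129) lost their calls without the arrays in brackets.

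Epithelium was present in both groups by the luminal keratin Krt18, 733, 682 and 409.6 at puberty and 577 and 866 at involution (0.26 ± 0.27, adjusted p = 0.639). Of the defining markers, the basal keratins Krt14 and Krt15 and the progesterone receptor Pgr were at the floor in both groups, and the basal keratin Krt5 was near it, 7.05, 4.97 and 8.11 at puberty and 5.73 and 23.5 at involution (0.12 ± 0.20, adjusted p = 0.804). Of 19 luminal markers 3 rose, Elf5, the adhesion molecule Epcam and the tight junction protein Cldn3. Epcam gave 46.1, 60.05 and 43.8 at puberty and 134 and 183 at involution (1.66 ± 0.21, adjusted p = 0.00296). Of 13 basal markers 5 rose, among them contractile proteins of myoepithelium and smooth muscle. The smooth muscle myosin Myh11 gave 179.9, 229 and 192 at puberty and 705 and 702 at involution (1.82 ± 0.14, adjusted p = 2.34e-04). The myosin kinase Mylk gave 483, 493 and 467 at puberty and 1171 and 1097 at involution (1.24 ± 0.12, adjusted p = 7.24e-04). Trp63, the basal transcription factor p63, was 48.8, 32.1 and 44.1 at puberty and 94.5 and 127 at involution (1.42 ± 0.31, adjusted p = 0.0301). The calls of Epcam, Myh11 and Mylk held with each of the 9 arrays left out in turn. Trp63 (any puberty, either pregnancy, either lactation or either involution, adjusted p up to 0.199) lost its call without the arrays in brackets. The basal count was 2 without puberty array 3 or either involution array and 3 without puberty array 1 or 2 or either lactation array. Of 18 endothelium markers only the leukocyte adhesion molecule Vcam1 passed, 115, 120.2 and 89.1 at puberty and 277 and 219.6 at involution (1.20 ± 0.23, adjusted p = 0.0166), and not without either involution array.

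Among signals between cells, single members were called, beside shares over all genes of 4.64% higher and 2.81% lower. In the hormone receptor and paracrine list 2 of 27 rose (0 without involution array 2) and 1 fell (0 without puberty array 1 or 2 or either lactation or involution array, 2 without puberty array 3). Of the 27, 11 had both involution arrays below all puberty arrays (16.3% over all probe sets) and 5 had both above (26.1%), before flooring. At an unadjusted p under 0.05 were 12, against 2174 of all 9783 probe sets tested. The vitamin D receptor Vdr was at the floor at puberty and 75.8 and 90.9 at involution, at least 4.15-fold higher (adjusted p = 0.00778). Wnt5b gave 27.4, 12.1 and 28.8 at puberty and 78.6 and 101 at involution (1.83 ± 0.26, adjusted p = 0.00488). Of 26 genes of the TGF-beta and IGF axis 2 rose and 2 fell, and family members opposed each other. Both counts were 0 without involution array 2, and the rises were also 0 without puberty array 3, pregnancy array 2 or either lactation array. Tgfb3, an early signal of involution, gave 240.2, 182 and 165 at puberty and 430.2 and 1039 at involution (1.79 ± 0.34, adjusted p = 0.0168). Tgfb1, of the same family, gave 249, 255 and 165 at puberty and 61.4 and 85.9 at involution (-1.59 ± 0.34, adjusted p = 0.0256). Among 27 immediate early and AP-1 genes 2 rose (1 without puberty array 1 or involution array 1, 4 without lactation array 1). The matricellular Ccn2, connective tissue growth factor, gave 43.9, 78.5 and 90.6 at puberty and 1088 and 577 at involution (3.55 ± 0.36, adjusted p = 8.95e-04). The stress gene Gadd45a rose while its relative Gadd45g fell, 328, 262 and 149.6 at puberty and 41.2 and 44.7 at involution (-2.45 ± 0.37, adjusted p = 0.00613). The call of Ccn2 held with each of the 9 arrays left out in turn. Vdr (involution array 2, adjusted p up to 0.0873), Wnt5b (involution array 2, adjusted p up to 0.0588), Tgfb3 (puberty array 2 or 3, pregnancy array 2, either lactation or involution array 2, adjusted p up to 0.0873), Tgfb1 (puberty array 1 or 2, either lactation or either involution, adjusted p up to 0.135) and Gadd45g (lactation array 2 or either involution, adjusted p up to 0.0712) lost their calls without the arrays in brackets.

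Some genes of division and death rose. Of 37 cell cycle genes 4 rose (10.8%, against 4.64% of all genes), Stmn1, Ccnd1, Rrm1 and Ccnb2, with a median of 0.42. Cyclin D1, Ccnd1, gave 326, 330.1 and 259.6 at puberty and 531 and 592 at involution (0.89 ± 0.20, adjusted p = 0.0343), while a dimmer probe set of it differed by -0.06 and was not called. Cyclin B2, Ccnb2, gave 191, 143 and 156 at puberty and 251 and 569 at involution (1.22 ± 0.30, adjusted p = 0.0447). The count was 0 without puberty array 3, either pregnancy array or involution array 2, and 1 without puberty array 1 or 2 or either lactation array. Of 25 apoptosis genes 2 rose, 0 without puberty array 1 or 3 or involution array 2 and 1 without puberty array 2 or either pregnancy array. They were 1 with each of the other scalings. The share of the 2 was 8%, against 4.64% of all genes higher. The first was Bcl2l11, which encodes the death promoting Bim, with 165, 156 and 182 at puberty and 270.1 and 363 at involution (0.91 ± 0.21, adjusted p = 0.0344). A dimmer probe set of the same gene went the other way without a call, 36.8, 41.3 and 32.0 at puberty and 27.0 and 13.3 at involution (-0.65 ± 0.22, adjusted p = 0.118). The other gene that rose was the receptor Tnfrsf1b with 122, 137 and 115 at puberty and 227 and 236 at involution (0.90 ± 0.18, adjusted p = 0.0191). Ccnd1 (any puberty, either pregnancy or either involution, adjusted p up to 0.207), Ccnb2 (any puberty, either pregnancy, either lactation or involution array 2, adjusted p up to 0.166), Bcl2l11 (any puberty, either pregnancy or involution array 2, adjusted p up to 0.219) and Tnfrsf1b (puberty array 1 or 3 or either involution, adjusted p up to 0.103) lost their calls without the arrays in brackets.

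Skeletal muscle genes were the list with the most members called, 22 of 30 tested lower and 0 higher, with a median of -3.10 on values with the floor. Acta1, skeletal actin, gave 5607, 3529.7 and 7845 at puberty and 48.3 and 128 at involution (-6.10 ± 1.08, adjusted p = 0.0125). The fast myosin Myh4 gave 4213, 2009.6 and 4818 at puberty and 4.71 and 66.8 at involution (-6.56 ± 0.84, adjusted p = 0.00292), while a dimmer probe set of it differed by 0.65 and was not called. The calcium-binding Pvalb gave 2349.8, 2158 and 4783 at puberty and 338 and 390.4 at involution (-2.99 ± 0.30, adjusted p = 8.65e-04). The puberty arrays differed among themselves, with array 3 highest in these 3 genes. Fast troponin Tnnt3 was 1023, 565 and 1939 at puberty and at the floor at involution, at least 51.9-fold lower (adjusted p = 9.22e-04). The other bounds among the 5 largest were also of muscle genes, with every involution array at the floor. The glycogen phosphorylase Pygm was 710.1, 351 and 1368 at puberty, at least 34.9-fold higher than at involution (adjusted p = 5.72e-04). The myosin Myh1 was 753, 376 and 917, at least 31.9-fold higher (adjusted p = 5.87e-04). The glycolytic Pgam2 was 371, 176 and 677, at least 17.7-fold higher (adjusted p = 0.00156), and the sarcomere protein Ldb3 was 382, 179 and 612, at least 17.4-fold higher (adjusted p = 0.00738). Summed over the list, signals were 17277 to 44975 at puberty and 1375 to 1846 at involution, and at pregnancy and lactation the list was also below puberty. Its mean log2 difference from puberty per array was -3.50 and -2.67 at pregnancy and -3.33 and -3.25 at lactation. Of the 199 genes lower at involution 22 (11.1%) were in this list, as were 13 of the 20 largest falls. Skeletal muscle is not part of the gland itself, and the amount taken along with it was not tested. The calls of Myh4, Pvalb, Tnnt3, Pygm, Myh1 and Pgam2 held with each of the 9 arrays left out in turn. Acta1 (either lactation or either involution, adjusted p up to 0.104) and Ldb3 (either involution, adjusted p up to 0.0879) lost their calls without the arrays in brackets. The count was 13 without involution array 2.

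Promoters of Acta1 and Myh4 are shown for the CArG box, the letters of serum response factor, a regulator of muscle genes. The stretches before the starts are Acta1 at chr8:123894776-123894895, minus strand and Myh4 at chr11:67237692-67237811, plus strand (RefSeq, GRCm38.p6), with the box in capitals. Its letters run from CC to GG with only A or T between.
Acta1: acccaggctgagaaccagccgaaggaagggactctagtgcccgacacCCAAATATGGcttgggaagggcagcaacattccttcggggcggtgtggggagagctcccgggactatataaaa
Myh4: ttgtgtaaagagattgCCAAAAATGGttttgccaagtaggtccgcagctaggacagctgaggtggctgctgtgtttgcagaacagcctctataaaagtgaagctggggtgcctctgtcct
The box begins 73 bases before the start in Acta1 and 104 bases before it in Myh4. It was found in 3 of 32 promoters of the muscle list (9.38%), 1.51% of all those of genes tested and 3.98% of those lower at involution, on either strand. CTA and TAG with any 4 bases between, a pattern looser than the MEF2 box, was in 1 of these 32. It was in 3.01% of all and in 4.42% of those lower.

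Of 36 respiratory chain subunits 4 fell, 1 without lactation array 2 and 2 without involution array 2. Cox6a2, Cox7a1 and Cox8b are forms of muscle and brown fat, and Uqcrc1, which all tissues use, gave 1306, 1129 and 1119 at puberty and 663 and 736 at involution (-0.76 ± 0.15, adjusted p = 0.0174). Of 18 fatty acid oxidation genes 0 were called by limma and 0 by ordinary least squares. At an unadjusted p under 0.05 were 8, against 2174 of all 9783 probe sets tested. With the other scalings 2 to 4 were lower, and 1 was without puberty array 2 or involution array 1. Of the 18, 12 had both involution arrays below all puberty arrays (16.3% over all probe sets) and their median was -0.48. Hadhb, a subunit of the trifunctional protein, gave 1700.0, 1362 and 1536 at puberty and 1151 and 961 at involution (-0.54 ± 0.15, adjusted p = 0.0747). Uqcrc1 (puberty array 1, lactation array 2 or either involution, adjusted p up to 0.0764) lost its call without the arrays in brackets.

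Of 6 erythroid transcripts 2 fell. Alpha globin Hba-a1 gave 2904, 1962 and 3566 at puberty and 296 and 186 at involution (-3.54 ± 0.28, adjusted p = 2.76e-04). The heme synthesis enzyme Alas2 gave 65.1, 56.2 and 92.0 at puberty and 14.6 and 27.1 at involution (-1.58 ± 0.28, adjusted p = 0.0131). Both were below puberty on both involution arrays, while the erythroid factor Klf1 was 27.1, 33.3 and 52.5 at puberty and 45.9 and 66.9 at involution (0.61 ± 0.31, adjusted p = 0.291). The count was 1 without either lactation or either involution array. Of 20 genes of the unfolded protein response only Pdia6, a disulphide isomerase, passed, 299, 260.1 and 207 at puberty and 88.2 and 38.2 at involution (-2.12 ± 0.33, adjusted p = 0.00687). Of 24 ribosomal protein genes 0 were called by limma and 0 by ordinary least squares. At an unadjusted p under 0.05 was 1, against 2174 of all 9783 probe sets tested. The median of 0.14 turned to -0.06 after quantile normalization. Rpl22 was 195, 177 and 166 at puberty and 119 and 139.8 at involution (-0.48 ± 0.22, adjusted p = 0.240) on its brightest probe set, but its other probe set was higher by 1.29 and called. Gnb1, Mid1ip1 and Tapbp had probe sets called in both directions, 3 of 1389 genes with at least 2 tested. The call of Hba-a1 held with each of the 9 arrays left out in turn. Alas2 (either lactation or either involution, adjusted p up to 0.0734) and Pdia6 (either lactation, adjusted p up to 0.0563) lost their calls without the arrays in brackets.

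**Figure D4:**
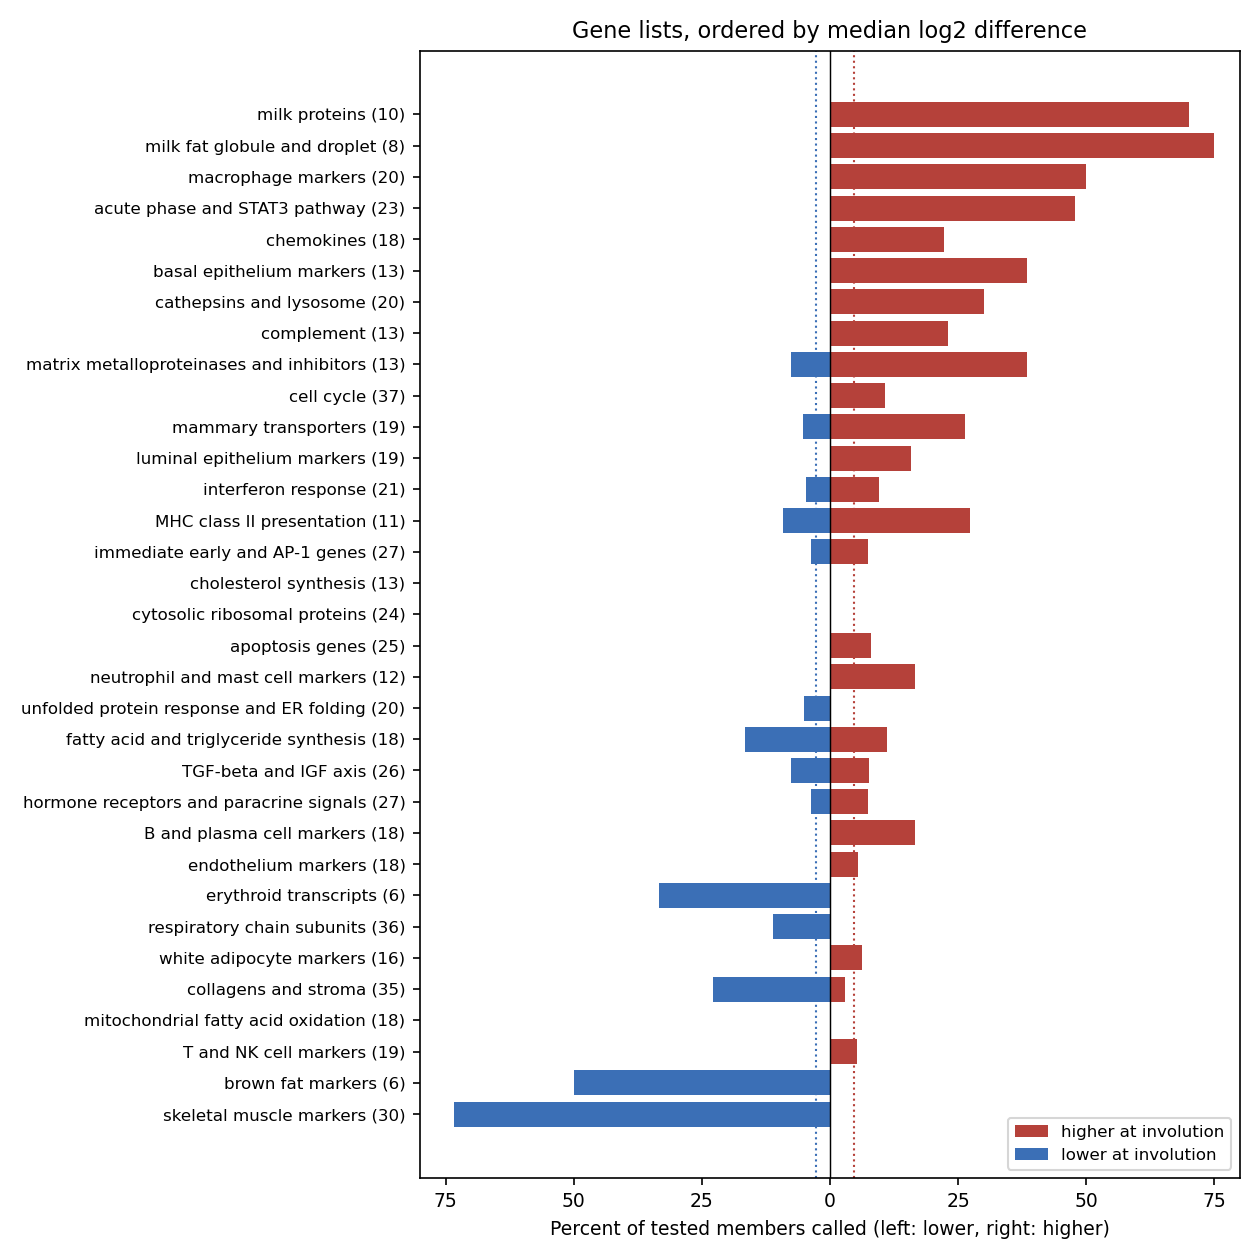
Percent of the tested members of each of 33 gene lists (number in brackets) called higher (right) or lower (left) at involution, ordered by the median log2 difference. Dotted lines mark the shares over all genes, 4.64% higher and 2.81% lower, and the longest bars are the milk fat globule (6 of 8 higher) and skeletal muscle (22 of 30 lower).

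The position of the involuting gland among the stages differed between groups of genes. Milk protein genes, averaged per array as the log2 difference from the puberty mean, were at 3.05 and 3.47 at involution, 2.74 and 2.82 at pregnancy and 6.81 and 7.05 at lactation. Macrophage markers were at 0.77 and 0.83 at involution, while at pregnancy they lay at -0.03 and 0.00 and at lactation at -1.07 and -0.83. Involution was the highest of the stages for macrophage markers and chemokines and lay between puberty and lactation for milk proteins and for collagens and stroma. Acute phase genes were at 1.02 and 1.29 at involution and 0.70 and 1.57 at lactation, where the 2 arrays differed, so that these stages overlapped. Cell cycle genes were at 0.18 and 0.56, against 1.09 and 1.35 at pregnancy and -0.16 to 0.17 among the puberty arrays themselves. These levels are descriptions with no test.

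**Figure D5:**
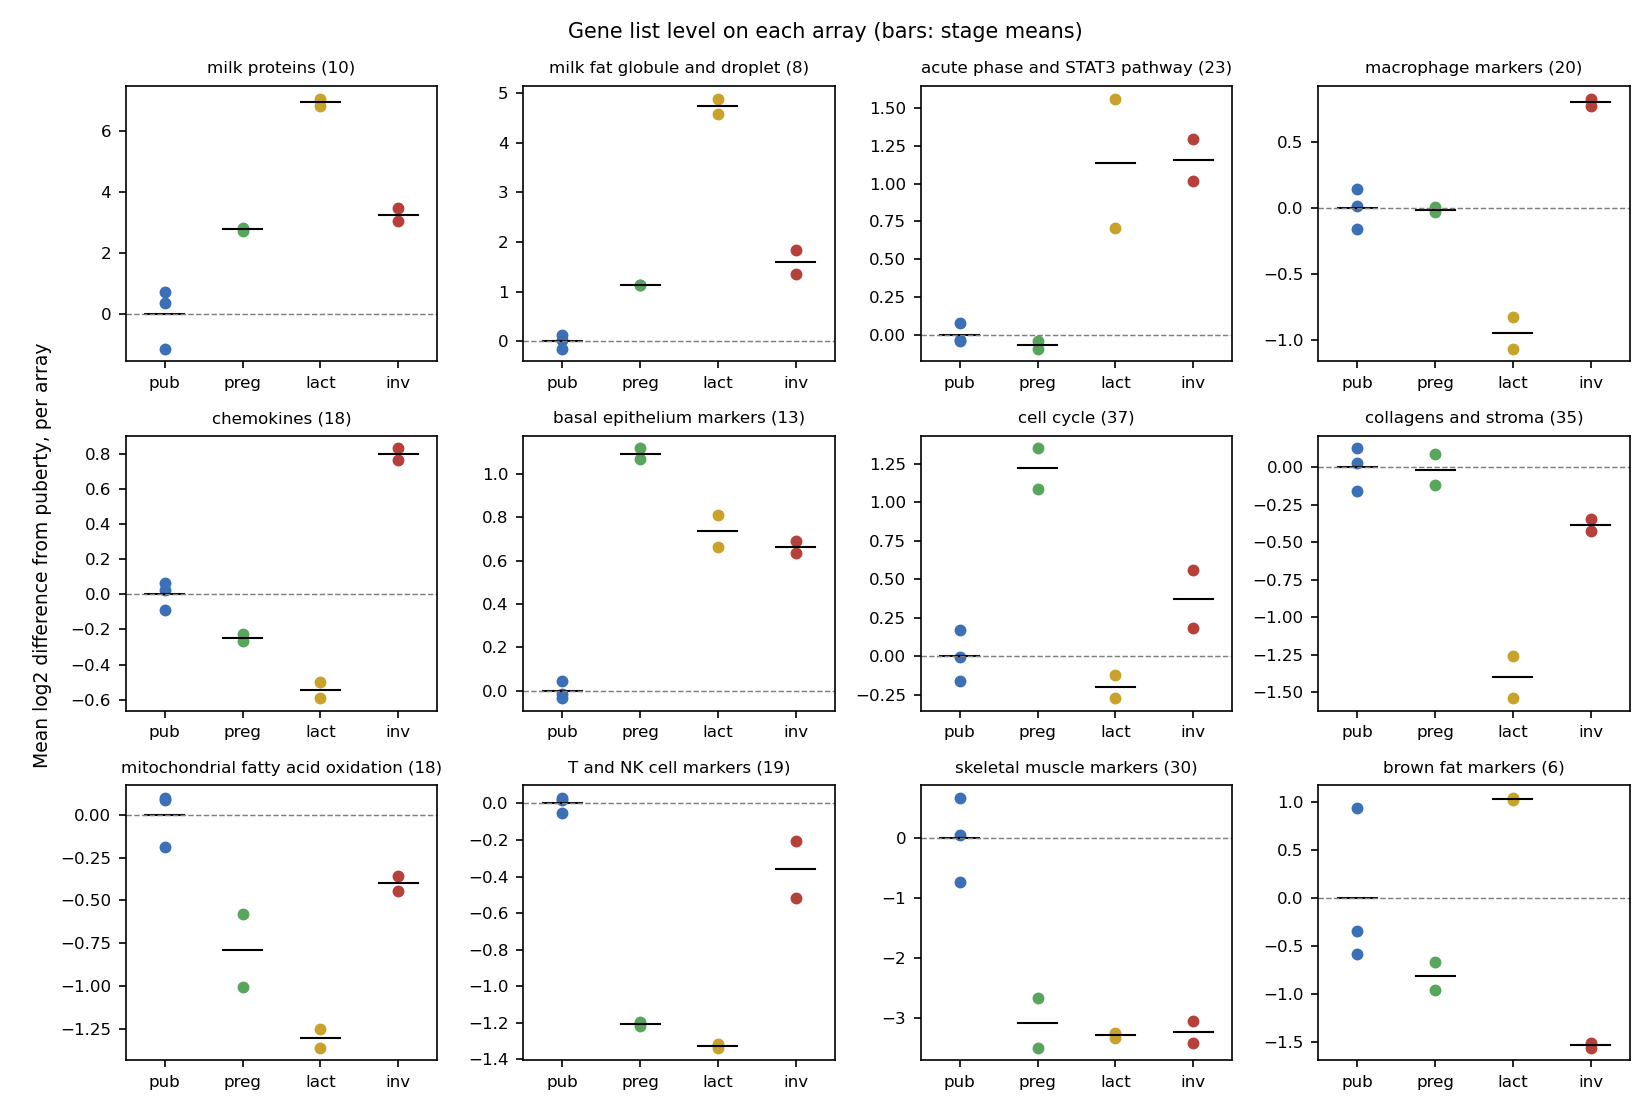
Mean over the tested genes of 12 lists (number in brackets) of the log2 difference from the puberty mean, with a point for each array and a bar at each stage mean. Macrophage markers and chemokines are highest at involution, milk proteins and milk fat globule genes at lactation, and skeletal muscle genes at puberty.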

How the data were processed

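Values were those the authors deposited, a MAS5 signal intensity on a linear scale per the labels, neither logged nor centred. The cRNA amounts in the methods and in the labels differ. Here the 66 control probe sets were dropped, each array was scaled to the same median, values below 20 were raised to that floor, and logarithms (log2) were taken. Signals are printed after scaling and without the floor. Probe sets with a mean above 20 in at least 1 stage were tested with limma 3.58.1 in R 4.3.3 (lmFit, eBayes with a trend) over all 9 arrays, with stage means, the contrast involution minus puberty and Benjamini-Hochberg adjustment at 0.05 over the 9783 tested. A difference is that of the means of 3 puberty and 2 involution arrays, given with its SE. The SE and p-values rest on the spread between arrays of the same stage, pooled over all 9 arrays and moderated by eBayes. Symbols came from the platform annotation, updated through the Entrez ID for 10817 of 10833 probe sets with 1 symbol. A further 396 carried several symbols and 1193 none listed.

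Genes were named from a pool of the 12 largest rises and falls called with the groups apart, the 5 largest bounds per direction, in each list the 5 members of lowest adjusted p and up to 2 that opposed it, and marker genes. The text gives values for part of this pool, with exceptions marked. The 33 lists and the members were chosen with earlier results of these data known. In a test on simulated data for this contrast over 9783 probe sets, 44% of changes of 1 and 93% of changes of 2 (log2) were recovered, with 7 false calls among 144. Alternatives covered scaling, floor, filter, the model, the replicate number as a block and leaving out each array. The number of arrays limits the precision.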

Additional observations from a re-analysis of the deposited data

How the results depend on the processing

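The 429 higher and 303 lower probe sets became 261 higher at 2-fold or more. With no filter they were 275 and 179, by ordinary least squares without moderation 198 and 119, and with a floor of 50 the lower ones were 164. Leaving out each array in turn gave 151 to 489 higher and 94 to 309 lower. The distance of 0.643 was 0.635 to 0.724 with 1 array left out, 0.519 with a floor of 50, 0.845 with no floor, 0.571 with no filter and 0.755 with a filter of 100. Replicate numbers were not used as pairs in the main fit. Deviations of same-numbered arrays from their stage means correlated at -0.153 to 0.049. In stages of 2 arrays the deviations mirror each other, so few of these values are separate. Whether same-numbered arrays were handled together was not tested. With the number as a replicate block 193 were higher and 161 lower. Of the values of 118 named genes called, 0 of 2707 under the alternatives reversed direction and 2228 kept their side of the threshold. Prdm1, under 50 on every array, had no difference left with a floor of 50. The largest loss of calls came without involution array 2. Of named genes not called, Slc4a1 reversed, from -0.13 to 0.12 with a floor of 50 and to 0.38 without involution array 2 (-0.65 without array 1). The cause of these changes was not tested. Low signals limit the fold changes, since 37 of the higher and 59 of the lower probe sets had 1 group wholly at the floor.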
